A study of Mus musculus with 7 samples.

Results

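The genes described here are 10 of the 23282 entries of a count table from mouse glioblastoma cells: the hormone receptor genes Lhcgr, Fshr, Prlr and Ptgfr, the inhibin and activin subunit genes Inha, Inhba and Inhbb, the activin-binding gene Fst, and Amh with its receptor gene Amhr2. They were chosen by symbol with their counts per 1000000 library counts (CPM) in WT and Fyn-KO libraries already known, so their levels are given as a description and carry no test. All 10 had a count in at least 1 library, and 9 of them, all but Amh, were among the 13122 genes that passed the filter on low counts. The libraries came from glioblastoma cells of adult mice of strain C57BL/6, sorted for tdTomato fluorescence, with the cells of each mouse sorted and made into a library separately. The groups were 3 WT mice and 4 Fyn-KO mice, with Fyn, a Src-family kinase, knocked out in the latter. Neither the labels nor the design text say how the tumours were started, in which cells Fyn was deleted or what sex the mice were. The kit reads 1 tag at the 3' end of each transcript, so CPM here are set by the library total alone and are not divided by gene length.

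In the ovary, follicle-stimulating hormone acts through Fshr on granulosa cells of growing follicles, and luteinizing hormone acts through Lhcgr on theca cells, mature granulosa cells and the corpus luteum, the gland that makes progesterone after ovulation. Prolactin keeps the rodent corpus luteum active through Prlr, and prostaglandin F2alpha ends its life through Ptgfr. Granulosa cells secrete inhibin, a dimer of the Inha subunit with a beta subunit, and activin, a dimer of beta subunits, and follistatin binds and blocks activin. Anti-Müllerian hormone (Amh) is a granulosa cell product that signals through Amhr2.

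Library totals were 8976745 to 16371244 counts, with 7723 to 9924 genes detected per WT library and 13535 to 14548 per Fyn-KO library. Fyn was at 1039, 719.9 and 1604 CPM in WT replicates 1 to 3 and at 105.3, 105.6, 74.5 and 189.8 CPM in Fyn-KO replicates 1 to 4, so the groups did not overlap at the targeted gene and each Fyn-KO library still held Fyn tags. A 3' tag need not lie in the deleted part of the gene, which the labels do not give. The WT libraries were uneven: of 4827 genes at 100 CPM or more in at least 1 WT library, 2002 (41.5%) were under 1 CPM in another WT library, while the same held for 1 of 2524 genes (0.0396%) among the Fyn-KO libraries. A 0 in a WT library has to be read beside that unevenness, whose part in the results was not tested. The ribosomal RNA entry Rn45s took 1.41% to 2.92% of the counts of WT libraries and 10.6% to 16.6% of those of Fyn-KO libraries. In bulk libraries such as these, fewer cells of a type and less RNA per cell cannot be told apart.

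Lhcgr, the receptor of luteinizing hormone, had no count in any WT library. In Fyn-KO replicates 1 to 4 it was at 131.1, 146.1, 107.5 and 139.6 CPM. The Fyn-KO libraries were close to each other and none came near the WT libraries. The mean was 131.1 ± 16.9 CPM (SD, n = 4), at least 520-fold above the WT floor of 0.252 CPM, which is the level that 3 counts would give in the shallowest WT library. Lhcgr (ENSMUSG00000024107.7) lies on the minus strand of chromosome 17, from 88716481 to 88791990 in GRCm38, with 1 coding transcript in GENCODE M21 and no overlapping gene.

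Fshr, the receptor of follicle-stimulating hormone, was also without a count in WT, and Fyn-KO replicates 1 to 4 were at 1.07, 7.98, 0 and 8.58 CPM. These are 10, 83, 0 and 77 counts, so Fyn-KO replicate 3 was at 0 with the WT libraries and replicate 1 was close to it. The 0 of 9135724 counts in Fyn-KO replicate 3 allows up to 0.328 CPM. The mean of 4.41 ± 4.50 CPM (SD, n = 4) was at least 17.5-fold above the WT floor, with an SD as large as the mean. Within a library, Lhcgr had 123 times the counts of Fshr in Fyn-KO replicate 1, 18.3 times in replicate 2 and 16.3 times in replicate 4. Fshr (ENSMUSG00000032937.5) lies near Lhcgr on the same strand of chromosome 17, from 88984952 to 89200675, also with 1 coding transcript.

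The stretch just before the start of each gonadotropin receptor gene is shown because the genes lie near each other on 1 strand and differed in level. The sequences are the 250 bases before the start in RefSeq on GRCm38.p6, read 5' to 3' on the minus strand, at chr17:88792015-88792264 for Lhcgr and chr17:89200676-89200925 for Fshr. Capitals mark the GC box GGGCGG in Lhcgr and the E-box CACGTG in Fshr.
Lhcgr: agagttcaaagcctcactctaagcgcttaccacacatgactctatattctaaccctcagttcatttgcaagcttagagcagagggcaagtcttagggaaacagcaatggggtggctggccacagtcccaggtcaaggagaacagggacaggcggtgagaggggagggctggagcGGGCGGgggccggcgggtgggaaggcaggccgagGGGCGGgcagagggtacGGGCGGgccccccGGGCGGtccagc
Fshr: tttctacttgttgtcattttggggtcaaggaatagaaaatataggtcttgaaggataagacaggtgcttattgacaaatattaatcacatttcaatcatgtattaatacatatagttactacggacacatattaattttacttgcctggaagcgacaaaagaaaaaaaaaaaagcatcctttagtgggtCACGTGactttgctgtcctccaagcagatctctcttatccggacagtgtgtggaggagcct
The Lhcgr window was 63.2% G and C and held 4 GC boxes, starting 76, 42, 25 and 12 bases before the start. The Fshr window was 36.8% G and C and held no GC box and 1 E-box, 61 bases before the start. Searched on both strands, 32.7% of 32851 mouse windows of this length held the letters GGGCGG and 6.02% held CACGTG, and the median window was 52.4% G and C. A match is a description of these letters and not evidence of a bound site.

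Prlr, the prolactin receptor, had the highest level of the 10 genes. It had 1, 2 and 0 counts in WT replicates 1 to 3 and stood at 1958, 1916, 1556 and 1613 CPM in Fyn-KO replicates 1 to 4. All 4 Fyn-KO libraries were within a narrow band, with Prlr at rank 24 of all entries by mean Fyn-KO CPM. The mean was 1761 ± 205 CPM (SD, n = 4), and the pooled ratio to WT was 24194, with a 95% exact interval of 8278 to 117321 that covers counting error only. Prlr (ENSMUSG00000005268.20) lies on the plus strand of chromosome 15, from 10177238 to 10349180, and its 7 coding transcripts have 7 different 3' ends. The annotated gene Gm21973 shares exon sequence with it on the same strand, so tags there cannot be told apart.

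RefSeq gives 3 start windows for Prlr, and a tag at the 3' end does not show which start was used. The window at chr15:10223656-10223905, on the plus strand of GRCm38.p6, is shown because it was the only Prlr window with the letters TTCNNNGAA of the STAT5 motif, STAT5 being the factor that prolactin receptors activate. Capitals mark the match, TTCTAGGAA, 110 bases before the start.
Prlr: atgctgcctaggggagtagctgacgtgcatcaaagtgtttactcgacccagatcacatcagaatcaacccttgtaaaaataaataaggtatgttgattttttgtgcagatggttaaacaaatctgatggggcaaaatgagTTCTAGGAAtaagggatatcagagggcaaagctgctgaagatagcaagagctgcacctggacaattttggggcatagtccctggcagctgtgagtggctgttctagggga
Those letters were in 7.02% of the 32851 windows.

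Ptgfr, the receptor of prostaglandin F2alpha, had 0, 0 and 1 counts in WT replicates 1 to 3, and its levels were 248.9, 256.4, 193.4 and 250.1 CPM in Fyn-KO replicates 1 to 4. Fyn-KO replicates 1, 2 and 4 nearly coincided and replicate 3 stood below them. The mean was 237.2 ± 29.4 CPM (SD, n = 4), with a pooled ratio of 9767 and a 95% exact interval of 1753 to 385811, wide because WT held 1 count. Ptgfr (ENSMUSG00000028036.6) spans 151796502 to 151837630 on the minus strand of chromosome 3. The unclassified transcript Gm43618 lies over an exon on the opposite strand, and the strand used in counting is not given.

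**Figure D1:**
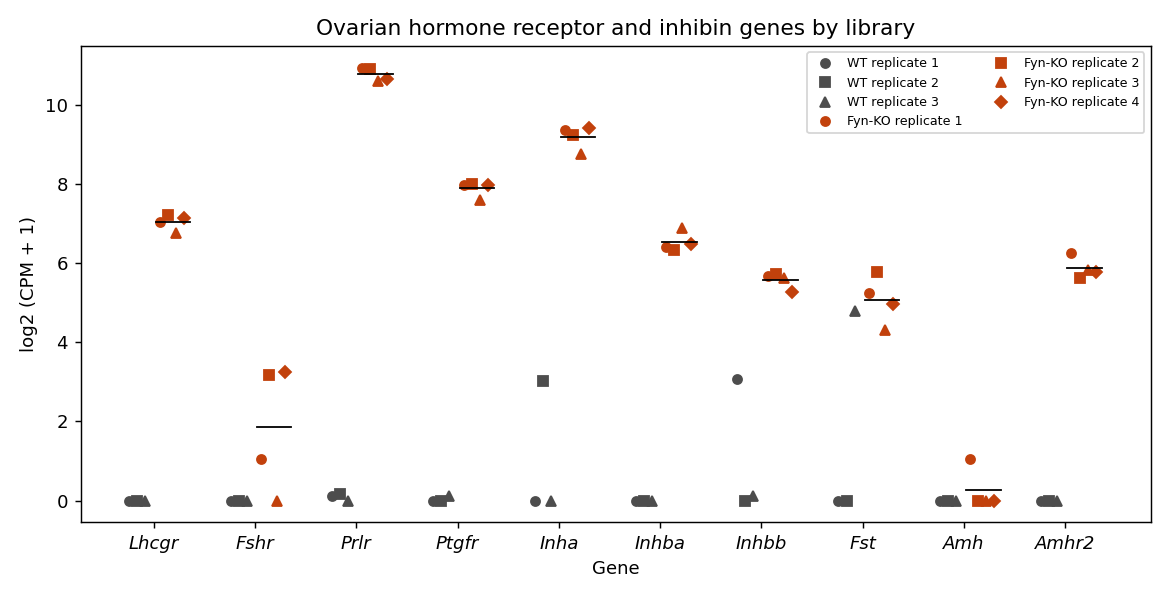
Level of each of the 10 genes in each library, as log2 of CPM plus 1 on the vertical axis, with WT libraries in grey, Fyn-KO libraries in orange, a marker shape per replicate and a line at the mean of the Fyn-KO values on this scale. Prlr is highest at 1556 to 1958 CPM, Fshr and Amh reach 0 in at least 1 Fyn-KO library, and Fst is the gene whose WT replicate 3, at 26.4 CPM, lies within the Fyn-KO values.

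Inha, the alpha subunit that makes a dimer inhibin, had 117 counts (7.15 CPM) in WT replicate 2 and none in the other WT libraries. Fyn-KO replicates 1 to 4 were at 651.4, 603.5, 432.4 and 676.0 CPM. Every Fyn-KO library was far above every WT library, and Fyn-KO replicate 3 was the lowest of the 4. The means were 590.8 ± 109.8 CPM (SD, n = 4) and 2.38 ± 4.13 CPM (SD, n = 3), a ratio of 248 in which WT rests on 1 library. Inha (ENSMUSG00000032968.4) spans 75507077 to 75510366 on the plus strand of chromosome 1.

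Inhba, the beta A subunit, had no count in WT, and Fyn-KO replicates 1 to 4 were at 83.1, 79.6, 116.7 and 87.8 CPM. It was the only member highest in Fyn-KO replicate 3. Its mean of 91.8 ± 16.9 CPM (SD, n = 4) was at least 364-fold above the WT floor. Inhbb, the beta B subunit, had 95, 0 and 1 counts in WT replicates 1 to 3, at most 7.44 CPM. Its levels were 49.6, 51.4, 48.2 and 37.8 CPM in Fyn-KO replicates 1 to 4. The lowest Fyn-KO library was still above WT replicate 1. The Inhbb means were 46.7 ± 6.12 CPM (SD, n = 4) and 2.51 ± 4.27 CPM (SD, n = 3), a ratio of 18.6 in which WT rests on replicate 1: without it the WT mean is 0.042 CPM, from 1 count. Inhba (ENSMUSG00000041324.14) spans 16011851 to 16031621 on the plus strand of chromosome 13, and Inhbb (ENSMUSG00000037035.5) spans 119415465 to 119422248 on the minus strand of chromosome 1.

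Since a dimer of alpha with beta is inhibin and a dimer of beta subunits is activin, the counts of the subunits were set against each other within each Fyn-KO library. Inha had 4.91, 4.61, 2.62 and 5.38 times the counts of Inhba and Inhbb together in replicates 1 to 4. Replicate 3 was the lowest, as Inha was low and Inhba high there. Inhba over Inhbb was 1.67, 1.55, 2.42 and 2.32 in the same order, so the beta A subunit was the more counted of the pair in each Fyn-KO library. These are ratios of tags, not of protein.

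Fst, which encodes follistatin, differed from the others by its level in a WT library. It had 0, 0 and 315 counts in WT replicates 1 to 3, the last being 26.4 CPM, and was at 36.9, 53.7, 18.8 and 30.3 CPM in Fyn-KO replicates 1 to 4. Fyn-KO replicate 3 was below WT replicate 3, so the groups overlapped. The means were 34.9 ± 14.6 CPM (SD, n = 4) and 8.82 ± 15.3 CPM (SD, n = 3). The beta subunits together had 3.60, 2.44, 8.76 and 4.14 times the counts of Fst in Fyn-KO replicates 1 to 4, with replicate 3 again apart. Fst (ENSMUSG00000021765.9) spans 114452290 to 114458951 on the minus strand of chromosome 13, and the antisense gene Gm47040 overlaps its exons on the opposite strand. Whether their tags were kept apart depends on the strand used in counting, which is not given.

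Amh, the hormone of small growing follicles, was seen only as 10 counts (1.07 CPM) in Fyn-KO replicate 1. The other Fyn-KO libraries and all WT libraries had none, and 0 counts allow up to 0.289 to 0.334 CPM in those Fyn-KO libraries and 0.183 to 0.252 CPM in WT. Its receptor gene Amhr2 behaved differently, with levels of 75.1, 48.6, 55.6 and 53.5 CPM in Fyn-KO replicates 1 to 4 and no WT count. Replicate 1 was highest and the other 3 were close together. The Amhr2 mean was 58.2 ± 11.7 CPM (SD, n = 4), at least 231-fold above the WT floor. Amh (ENSMUSG00000035262.5) spans 80805243 to 80807648 on the plus strand of chromosome 10, and Amhr2 (ENSMUSG00000023047.11) spans 102445367 to 102454633 on the plus strand of chromosome 15, with 4 coding transcripts.

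The window before the Amhr2 start, at chr15:102445117-102445366 on the plus strand of GRCm38.p6, is shown because it was the only one of the 10 member windows with AAGGTCA, the motif of SF-1 (Nr5a1), a nuclear receptor of steroid-making and gonadal cells. Capitals mark that motif, 231 bases before the start, and a GC box, 17 bases before it.
Amhr2: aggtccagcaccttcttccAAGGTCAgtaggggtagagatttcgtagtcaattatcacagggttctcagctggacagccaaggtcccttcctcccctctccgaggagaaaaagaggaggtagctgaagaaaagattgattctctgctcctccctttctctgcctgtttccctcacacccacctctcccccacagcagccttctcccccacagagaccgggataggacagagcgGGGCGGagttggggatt
AAGGTCA was in 4.08% of all windows, and 8 of the 10 genes, all but Fst and Amh, were matched to a RefSeq window. Only these exact letters were searched. The RefSeq window of Inha, chr1:75507359-75507608, lies inside the GENCODE span of that gene. The stretch before the GENCODE start of Inha was therefore not searched.

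Among the members, 7 of 10 were above every WT library in every Fyn-KO library, the exceptions being Fshr, Amh and Fst. Of all 13122 genes tested, 30.1% were separated in that way. The members were selected on these same values, so nothing is read from the difference between those shares. For 5 members there was no count in all 3 WT libraries and 8 were detected in all 4 Fyn-KO libraries. The shares of all genes with those patterns were not computed, so nothing is read from these counts either. Of the 9597 genes with a mean of at least 10 CPM in Fyn-KO, a level that Fshr and Amh did not reach, 591 had no WT count.

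Summed over the 10 genes, the WT libraries held 7.51, 7.27 and 26.6 CPM and the Fyn-KO libraries 3236, 3163, 2529 and 2897 CPM. In each WT library 1 gene made up nearly the whole sum, and it was a different gene in each: Inhbb with 99.0% in replicate 1, Inha with 98.3% in replicate 2 and Fst with 99.4% in replicate 3. In the Fyn-KO libraries the make-up was alike from mouse to mouse. Prlr gave 59.6 ± 2.63% (SD, n = 4) of the summed CPM, Inha 19.9 ± 2.61%, Ptgfr 8.02 ± 0.458% and Lhcgr 4.43 ± 0.348%. Inhba gave 3.18%, Amhr2 1.98%, Inhbb 1.59%, Fst 1.16%, Fshr 0.145% and Amh 0.00823%.

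**Figure D2:**
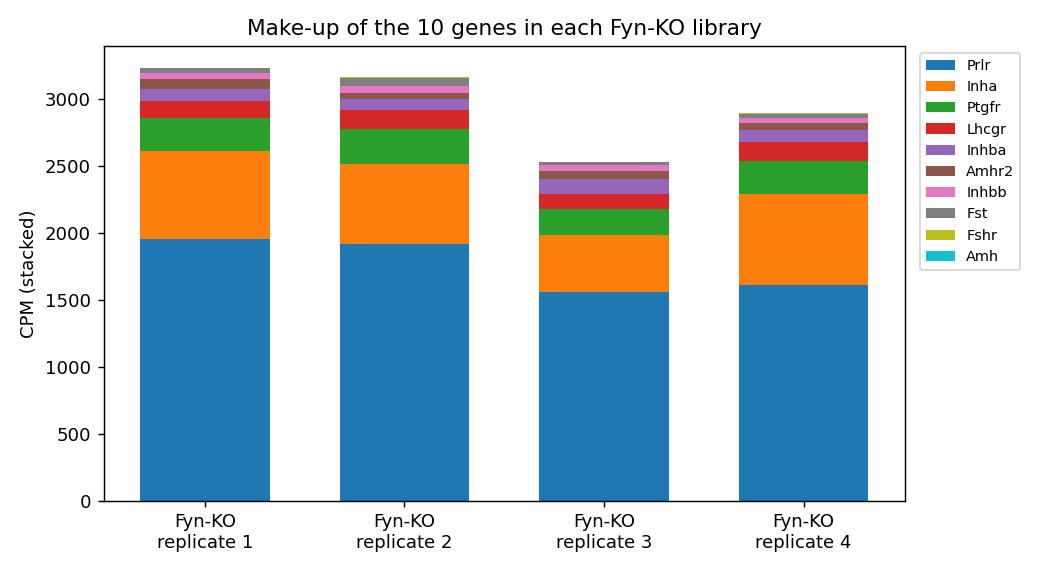
Stacked CPM of the 10 genes in each of the 4 Fyn-KO libraries, with 1 colour per gene and the height of a bar as their summed CPM. Prlr and Inha take most of each bar, the sums run from 2529 to 3236 CPM, and Fshr and Amh are too low to be seen.

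The spread between the Fyn-KO libraries was small for most members. The coefficient of variation was 11.7% for Prlr, 12.4% for Ptgfr, 12.9% for Lhcgr and 13.1% for Inhbb. It was between 18.5% and 20.04% for Inhba, Inha and Amhr2 and 41.7% for Fst. Over the 9597 genes with a mean of at least 10 CPM in Fyn-KO the median was 27.7%. That set was not matched to the members by level, and counting error grows as levels fall. Counting error alone would give 0.773% for Prlr and 15.3% for Fshr, whose observed value was 102%. Fyn-KO replicate 3 was the lowest library for 6 of the 9 members other than Amh. That library also had the most Rn45s, 16.6% of its counts, and the most oligodendrocyte lineage tags of the Fyn-KO libraries, and the part of either in those lower values was not tested.

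The study's labels do not set follicle against corpus luteum, but the members fall on both sides. The receptors that serve the corpus luteum (Lhcgr, Prlr and Ptgfr) together had 2.60, 2.75, 2.76 and 2.24 times the counts of the genes tied to follicles (Fshr, Inha, Inhba, Inhbb, Amh, Amhr2 and Fst) in Fyn-KO replicates 1 to 4. The ratio was 2.59 ± 0.243 (SD, n = 4), and it rested on Prlr. With Prlr left out, a choice made after seeing the data, Lhcgr and Ptgfr together had 0.423, 0.477, 0.448 and 0.436 times the counts of the follicle genes, so the ratio was then below 1 in each library. Ptgfr over Lhcgr was the steadiest ratio computed, at 1.90, 1.76, 1.80 and 1.79. Prlr over Lhcgr was 14.9, 13.1, 14.5 and 11.6, and Amhr2 over Lhcgr was 0.573, 0.333, 0.517 and 0.383. Lhcgr also serves the mature follicle, so the division of the genes into sides is approximate.

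The members were then read against Cyp11a1, which makes pregnenolone out of cholesterol, because WT replicate 3 also held tags of that pathway. WT replicate 3 had 1714 counts of Cyp11a1 (143.9 CPM), with Hsd3b1 at 103.9 and Star at 37.4 CPM. Per 100 Cyp11a1 counts, Prlr had 17.0, 16.4, 11.8 and 13.9 counts in Fyn-KO replicates 1 to 4 and none in WT replicate 3, where 0 allows up to 0.175. Inha had 3.28 to 5.85 in Fyn-KO and Lhcgr 0.816 to 1.25, again with none in WT replicate 3. Ptgfr had 1.47 to 2.19 in Fyn-KO and 0.0583, from 1 count, in WT replicate 3. Fst went the other way, with 18.4 per 100 in WT replicate 3 and 0.143 to 0.459 in Fyn-KO. WT replicate 2, whose 117 Inha counts were the only ones in WT, had no Cyp11a1 count. WT replicate 1 had 57 Cyp11a1 counts, beside which it had 1 count of Prlr (1.75 per 100) and 95 of Inhbb (166.7 per 100, against 0.327 to 0.439 in Fyn-KO), and the members at 0 there allow up to 5.26 per 100.

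**Figure D3:**
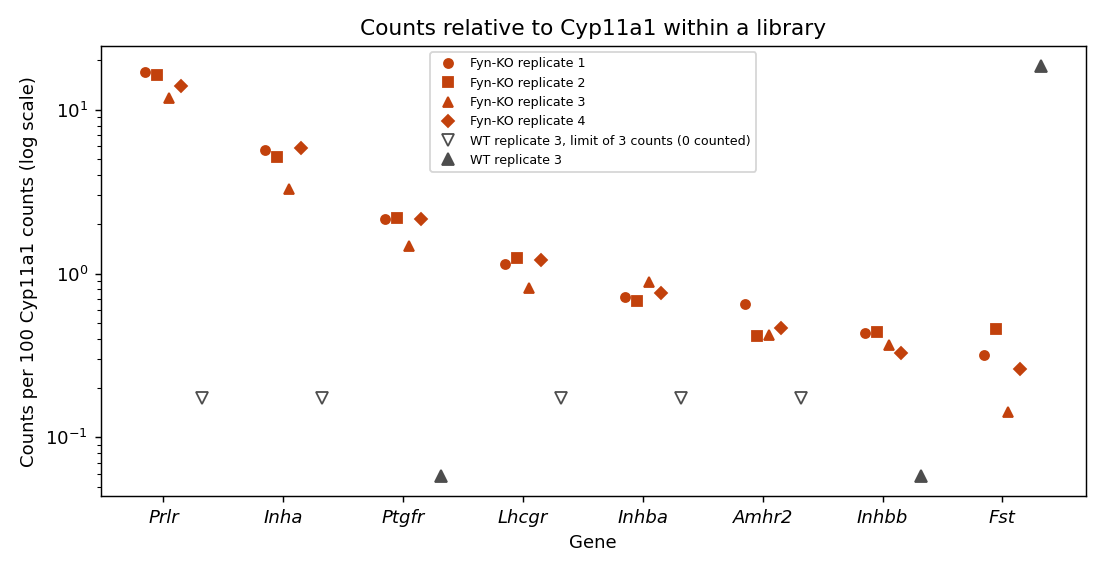
Counts of 8 of the genes per 100 counts of Cyp11a1 in the same library, on a log axis, for the 4 Fyn-KO libraries and for WT replicate 3, with an open triangle at the limit of 3 counts where that WT library had none. Prlr, Inha, Ptgfr, Lhcgr, Inhba, Amhr2 and Inhbb lie above the points or limits of WT replicate 3 in every Fyn-KO library, while Fst lies below its WT point.

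The genes with the most similar pattern were found by Euclidean distance of log2 (CPM + 1) over the 7 libraries, leaving out predicted genes and the members. Nearest to Lhcgr were Man2a1 (distance 0.46), Nr5a1 (0.517) and Tshz2 (0.532), and nearest to Ptgfr were Hoxc6 (0.395), Cst8 (0.468) and Mrap (0.509). Nearest to Prlr were Akr1cl (0.848), Mgarp (1.54) and Kcnk3 (2.30), and nearest to Inha were Rgs2 (1.02), Pank1 (1.42) and Pcolce (1.97). The distance mostly follows how alike the mean levels are: Nr5a1 had no WT count and a Fyn-KO mean of 120.5 ± 10.6 CPM (SD, n = 4), close to the level of Lhcgr.

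Markers of the cell types in which these genes are known were measured in the same libraries. Of 12 corpus luteum markers all were detected in Fyn-KO, and their summed CPM was 24542 to 29348 there against 110.5, 273.9 and 479.4 in WT replicates 1 to 3. The most abundant were Cyp11a1 at 11984 ± 797.5 CPM, Hsd3b1 at 6506 ± 1602 CPM and Star at 4601 ± 438.5 CPM (SD, n = 4 each). These genes of the steroid pathway gave most of that sum, so it is not particular to the corpus luteum. Akr1c18, also on that list, was far below them. Of 16 granulosa markers, 15 were detected in each Fyn-KO library, with summed CPM of 1469.5 to 1967 against 1041 to 1661 in WT, of which Serpine2, a protease inhibitor gene also known from brain, gave 423.4 to 1427 CPM. The BMP antagonist gene Grem1, also on that list, had no count in any library. Of 12 oocyte markers, 8 or 9 were detected per Fyn-KO library and none in WT, with summed CPM of 37.9 to 73.8 led by Gdf9 at 15.6 ± 4.89 CPM (SD, n = 4), while Figla and Sohlh1 had no count. Of 12 theca and stroma markers, 10 or 11 were detected per Fyn-KO library, led by Aldh1a1 at 1330 ± 187 CPM (SD, n = 4), with summed CPM of 1703 to 2064 against 0.489 to 193.2 in WT. The 10 markers of the oligodendrocyte lineage, among them Mbp and Olig1, lay the opposite way, with summed CPM of 29352, 14286 and 25099 in WT but 356.7, 468.5, 1464 and 830.7 for Fyn-KO replicates 1 to 4. The part of these cell types in the members' levels was not tested.

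Fyn-KO was next compared with WT at the other genes of the members' pathways, using the fit over all 13122 tested genes (edgeR quasi-likelihood F test, Benjamini-Hochberg adjusted p under 0.05). Over all genes 2493 (19.0%) were higher and 461 (3.51%) lower in Fyn-KO, and the median log2 fold change was 0.45. Leaving out WT replicate 2 raised the higher calls to 4585, and the lower calls ran from 247 without Fyn-KO replicate 2 to 839 without WT replicate 2. Lower calls also moved by more than 1.5 times without WT replicate 1 (729) or 3 (716) and without Fyn-KO replicate 1 (251) or 4 (262). Each list of pathway genes is described by its counts beside those shares. Tested genes without a WT count passed the filter only through Fyn-KO and could only come out higher. Nothing is therefore read from their direction or from their p-values, which are given as a description. Such genes also enter the counts and the median log2 fold changes of their lists, which are raised by them. They numbered 2 for activin and inhibin, 2 for AMH and BMP, 1 for gonadotropin receptors and 4 for gonadotropin targets. The prolactin list had 1 and the prostaglandin list 3. No gene of the 6 lists was called higher by limma-voom with quality weights, which at an unadjusted p under 0.05 had 1 to 5 higher genes per list. Among the 6446 genes counted in both groups (at least 10 counts in 2 WT and 3 Fyn-KO libraries), Ccnd2 alone was.

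Of 13 tested genes of activin and inhibin signalling, 3 were higher in Fyn-KO, none was lower and 10 did not pass, and the median log2 fold change was 2.60. The 3 were the activin receptor gene Acvr2b, Tgfbr3, whose product betaglycan helps inhibin bind activin receptors, and the inhibitory Smad gene Smad7. Acvr2b had no WT count and levels of 6.29, 9.52, 12.4 and 13.4 CPM in Fyn-KO replicates 1 to 4, which is at least 41.2-fold above the WT floor (edgeR adjusted p = 0.0121). Tgfbr3 had 2 WT counts and 67.0, 112.2, 42.8 and 88.1 CPM in the Fyn-KO libraries, a pooled ratio of 1613 with a 95% exact interval of 446.2 to 13328 (edgeR adjusted p = 0.0121). Smad7 had 3 WT counts and 16.7 ± 6.37 CPM (SD, n = 4) in Fyn-KO (edgeR adjusted p = 0.0150). The receptor gene Acvr1b was too low to test, with 1 WT count and 0, 2.405, 1.095 and 0 CPM in Fyn-KO replicates 1 to 4. The receptor genes Acvr2a and Acvr1c were tested and did not pass. Acvr2a was at 0, 62.7 and 0.252 CPM in WT replicates 1 to 3, with 16.9 to 46.7 CPM in the Fyn-KO libraries (edgeR adjusted p = 0.858). Acvr1c, at 0 in all WT libraries, was at 17.9, 4.14, 4.49 and 0 CPM in Fyn-KO replicates 1 to 4 (edgeR adjusted p = 0.0567). The subunit genes Inhbc and Inhbe had no count. At an unadjusted p under 0.05, 0 genes were lower by edgeR and 0 by DESeq2. Without WT replicate 2, 7 of the genes tested were higher.

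Of 15 tested genes of AMH and BMP signalling, 4 were higher, 1 was lower and 10 did not pass, with a median log2 fold change of 1.60. The ligand gene Bmp2 had no WT count and levels of 21.4, 20.8, 28.1 and 23.7 CPM in Fyn-KO replicates 1 to 4, which is at least 93.4-fold above the WT floor (edgeR adjusted p = 0.0121). Smad9, a signal carrier of BMP receptors, had no WT count and 3.82 ± 1.14 CPM (SD, n = 4) in Fyn-KO (edgeR adjusted p = 0.0121), and Bmper, which encodes a secreted BMP-binding protein, had 1 WT count and 29.3 ± 9.31 CPM (SD, n = 4; edgeR adjusted p = 0.0123). The ligand gene Bmp4 was lower, at 393.9, 97.1 and 891.4 CPM in WT replicates 1 to 3 against 4.37, 2.79, 56.4 and 31.3 CPM in the Fyn-KO libraries, a log2 fold change of -4.51 ± 1.30 (SE; edgeR adjusted p = 0.0399). That call was lost without WT replicate 1 or 3 or Fyn-KO replicate 1, 2 or 4 (0 lower in each case), and the log2 fold change was -3.29 without WT replicate 3 and -5.29 without Fyn-KO replicate 3. The receptor genes that Amhr2 pairs with did not pass: Acvr1 had means of 109.7 ± 52.6 CPM for Fyn-KO and 8.21 ± 14.2 CPM for WT (edgeR adjusted p = 0.253), and Bmpr1a at 110.6 ± 17.6 and 22.3 ± 38.4 CPM (edgeR adjusted p = 0.421). Bmpr2 was at 95.8 ± 3.53 and 11.5 ± 18.6 CPM (edgeR adjusted p = 0.178), and Bmpr1b at 10.6 ± 2.68 and 12.6 ± 21.8 CPM (edgeR adjusted p = 0.995). In WT these 4 receptor genes had nearly all of their counts in replicate 2, and without it 8 genes of the list were higher.

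Of 25 tested genes that carry or damp the signal of gonadotropin receptors, 4 were higher, none was lower and 21 did not pass, with a median log2 fold change of 0.29. Crem, a transcription factor gene of the cyclic AMP response, had 1 WT count and was at 22.6, 28.3, 9.52 and 17.4 CPM in Fyn-KO replicates 1 to 4, a pooled ratio of 811.6 with a 95% exact interval of 145.2 to 32097 (edgeR adjusted p = 0.0121). Arrb2, an arrestin gene, had 1 WT count and 4.84 ± 1.72 CPM (SD, n = 4) in Fyn-KO (edgeR adjusted p = 0.0124). Rgs2, which encodes a brake on G protein signals, was at 0.157, 8.98 and 0.168 CPM in WT replicates 1 to 3 against 489.7, 469.8, 366.4 and 411.0 CPM in the Fyn-KO libraries, a log2 fold change of 7.35 ± 1.55 (SE; edgeR adjusted p = 0.0124) that was 11.06 without WT replicate 2. Prkar2b, a regulatory subunit gene of protein kinase A that is also called higher, is known to be induced by follicle-stimulating hormone in rat granulosa cells. It was at 50.3, 10.3 and 0.0839 CPM in WT replicates 1 to 3 against 1786, 1853, 1182 and 1796 CPM in the Fyn-KO libraries (log2 fold change 6.37 ± 1.58, SE; edgeR adjusted p = 0.0207), and the call was lost without WT replicate 2, while the log2 fold change was 8.55 without WT replicate 1. Gnas, the G protein subunit gene through which both receptors raise cyclic AMP, had a WT mean of 1046 ± 381 CPM and a Fyn-KO mean of 908.6 ± 41.9 CPM (edgeR adjusted p = 0.603). At an unadjusted p under 0.05, 1 gene was lower by edgeR, and DESeq2 called 1 lower. The count of higher genes was 7 without WT replicate 1 and 10 without WT replicate 2, and 1 gene was lower in each of these.

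Of 11 tested targets of the luteinizing hormone surge or of follicle-stimulating hormone, 6 were higher, none was lower and 5 did not pass, with a median log2 fold change of 3.75. Of the 11, 4 had no WT count and passed the filter only through Fyn-KO, so the fit could only find them higher. Cited4, a transcriptional cofactor gene, had no WT count and 82.6 ± 12.4 CPM (SD, n = 4) in Fyn-KO, at least 327.8-fold above the WT floor (edgeR adjusted p = 0.0121). Runx2, a transcription factor gene of the ovulating follicle and young corpus luteum, had 4 WT counts and 169.2, 202.6, 174.5 and 196.1 CPM in Fyn-KO replicates 1 to 4 (edgeR adjusted p = 0.0121). Cyp19a1, the aromatase that makes oestrogen, had no WT count and levels of 6.50, 13.1, 4.49 and 7.91 CPM in the Fyn-KO libraries (edgeR adjusted p = 0.0121). Ccnd2, the cyclin gene that follicle-stimulating hormone induces in granulosa cells, was well counted in both groups, at 72.4, 186.2 and 175.7 CPM in WT replicates 1 to 3 against 597.4, 561.6, 648.9 and 572.1 CPM in the Fyn-KO libraries, a log2 fold change of 1.95 ± 0.45 (SE; edgeR adjusted p = 0.0153). The surge ligand gene Ereg had no WT count and 5.95 ± 5.52 CPM (SD, n = 4; edgeR adjusted p = 0.0142), whereas Areg had 1 count in all 7 libraries and Btc, at 2.003 ± 2.42 CPM in Fyn-KO, was too low to test. Ptgs2, Ptx3 and Pgr, which the surge induces in the follicle, were also too low to test. Other surge genes lay the opposite way without a call: Has2, a hyaluronan synthase gene, was at 55.1, 7.63 and 0 CPM in WT replicates 1 to 3 with no Fyn-KO count and was not tested. Tnfaip6, which encodes a hyaluronan-binding protein, was at 0.0783, 77.3 and 50.4 CPM in WT replicates 1 to 3 against 0, 0, 0.985 and 0 CPM in the Fyn-KO libraries (edgeR adjusted p = 0.0887). At an unadjusted p under 0.05, 1 gene was lower by edgeR, and DESeq2 called 2 lower. Leaving out WT replicate 1 gave 1 lower gene, and leaving out WT replicate 3 gave 2.

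Of 15 tested genes of prolactin receptor signalling, 2 were higher, none was lower and 13 did not pass, with a median log2 fold change of 0.88. Cish, a feedback inhibitor gene that STAT5 induces, had 2 WT counts and was at 43.5, 85.9, 31.6 and 92.5 CPM in Fyn-KO replicates 1 to 4, a pooled ratio of 1311 with a 95% exact interval of 362.5 to 10832 (edgeR adjusted p = 0.0121). Akr1c18, the enzyme that inactivates progesterone, had no WT count and levels of 22.1, 13.4, 7.44 and 25.8 CPM in the Fyn-KO libraries, which is at least 68.2-fold above the WT floor (edgeR adjusted p = 0.0121). Prolactin is known to repress that gene in the rodent corpus luteum. Hsd17b7, whose rat product was found bound to the prolactin receptor, had means of 986.5 ± 265.3 CPM for Fyn-KO and 73.8 ± 64.1 CPM for WT, and it did not pass (edgeR adjusted p = 0.103). Ghr, the related growth hormone receptor gene, was at 34.9 ± 2.61 and 4.08 ± 6.84 CPM (edgeR adjusted p = 0.302). The hormone gene Prl was seen as 10 counts in Fyn-KO replicate 1 and nowhere else. For lower genes, edgeR had 1 at an unadjusted p under 0.05 and DESeq2 had 0. Without WT replicate 2, 6 genes were higher. Without WT replicate 3, 5 were higher and 2 lower, and without WT replicate 1, 1 was lower.

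Of 20 tested genes of prostaglandin synthesis, transport and reception, 10 were higher, 1 was lower and 9 did not pass, with a median log2 fold change of 6.72. Ptges2, a prostaglandin E synthase gene, had no WT count and levels of 9.91, 28.1, 24.3 and 26.1 CPM in Fyn-KO replicates 1 to 4, which is at least 87.7-fold above the WT floor (edgeR adjusted p = 0.0121). The prostaglandin E receptor gene Ptger2 had no WT count and was at 7.46, 16.2, 5.36 and 5.35 CPM, at least 34.1-fold above the floor (edgeR adjusted p = 0.0121). Abcc4, a prostaglandin exporter gene, had 2 WT counts and 13.9 ± 2.72 CPM (SD, n = 4) in Fyn-KO (edgeR adjusted p = 0.0122). The receptor genes Ptger1 and Ptger4 also passed, at 6.70 ± 3.42 and 5.75 ± 5.95 CPM in Fyn-KO (edgeR adjusted p = 0.0142 and 0.0201), while Ptger3 had no count. All of these receptor genes were far below Ptgfr in CPM. Plcb1, a phospholipase gene of the pathway that Ptgfr drives, was lower, at 116.1, 65.2 and 232.2 CPM in WT replicates 1 to 3 and 20.7, 12.02, 27.9 and 16.8 CPM in the Fyn-KO libraries, a log2 fold change of -3.04 ± 0.84 (SE; edgeR adjusted p = 0.0328). That call was lost without WT replicate 3 or any 1 of the Fyn-KO libraries (0 lower in each case), with a log2 fold change of -2.13 without WT replicate 3, and 2 genes were lower without WT replicate 2.

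**Figure D4:**
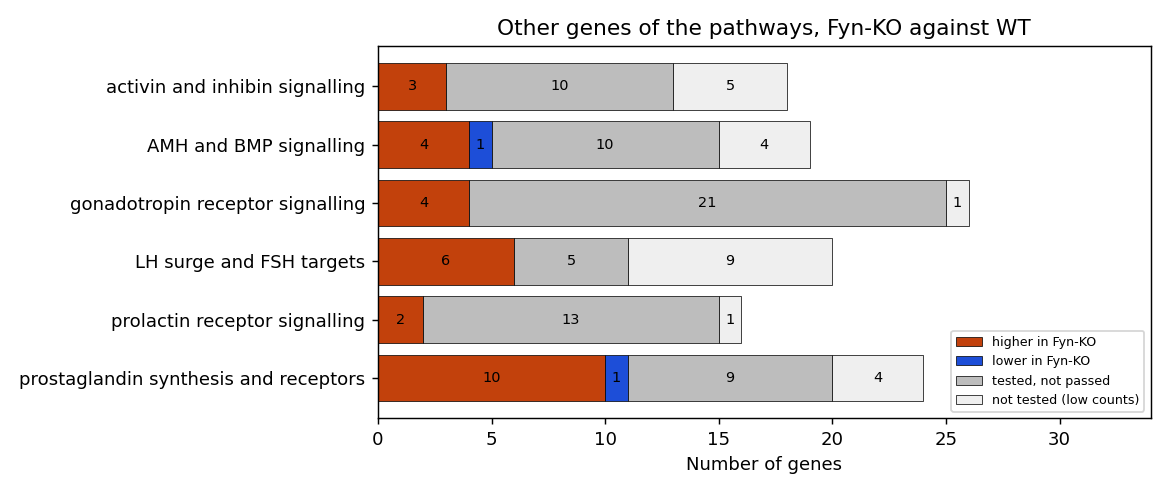
Number of genes in each of the 6 pathway lists that were higher, lower or did not pass in Fyn-KO against WT (edgeR adjusted p under 0.05), and the number too low to test. The prostaglandin list has the most higher genes, 10 of 20 tested, and the gonadotropin receptor list the most that did not pass, 21 of 25. Of all genes tested, 19.0% were higher. Of the 20 prostaglandin genes tested, 3 had no WT count and could only come out higher, and limma-voom called 0 of that list higher.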

How the data were processed

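The 7 libraries (3 WT, 4 Fyn-KO) of RNA from sorted tumour cells were made with the Lexogen QuantSeq 3' kit per the labels' protocols. The deposited table holds whole-number counts per gene, which the authors call modified without saying in the labels what was modified. Per the submitters' processing notes, the tools named are Bowtie2, bedtools and DESeq2 1.32.0 and the build is mm10 (GRCm38). Which annotation and strand were used in counting was not given in the sources used here. WT replicate 3's column could be tied to the WT group but not to a single sample.

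CPM were computed from the deposited counts. Genes were filtered with filterByExpr (minimum count 10, total 15), scaled by TMM and tested with the two-sided quasi-likelihood F test of edgeR 4.0.16 in R 4.3.3, Fyn-KO against WT. SE is approximate, being the log2 fold change divided by the root of F. The p-values measure the spread between these libraries. A fold against 0 uses a floor of 3 counts per library, and against 1 to 3 counts a pooled ratio with a 95% exact interval. Neither includes the spread between mice, and the interval, from counts pooled over libraries, covers counting error only. Tags carried no molecular identifiers, so copies of a tag could not be set apart and the interval may be too narrow.

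The 10 members, the 6 pathway lists (123 genes) and the 12 cell type lists were chosen with earlier results of these data known. Named are the members, Fyn, up to 3 genes past the threshold per list and direction by lowest p with the list's ligands and receptors, and per cell type the 3 most abundant genes and defining genes at 0. Prkar2b, Ccnd2, Gnas, Hsd17b7, Serpine2, Ptgs2, Ptx3, Pgr, Has2 and Tnfaip6 were named outside that rule, after their values were seen. A few genes covered by it are not reported here. Coordinates are GENCODE M21 and promoter windows are RefSeq, and motifs were chosen after the levels were known. Alternatives were RLE factors, library totals, no filter, a minimum count of 50, genes detected in both groups, DESeq2 1.42.0, limma-voom (limma 3.58.1), a replicate block and leaving out each library.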

Additional observations from a re-analysis of the deposited data

Results flagged for a closer look

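Among 50 sets of 4 Fyn-KO values screened, from the members and the named pathway genes, 7 had a library far from the other 3. The cutoff was that of Dixon's test, used only to flag values. In 4 of the 7 the other 3 libraries were at 0, which gives this outcome whatever the count. The remaining 3 of 46 sets all had Fyn-KO replicate 3 as the far library. Chance gives about 1 in 20 for independent sets. Genes of 1 library are not independent, so nothing is read from that share. Ptgfr was lowest at 193.4 CPM in Fyn-KO replicate 3, against 248.9 to 256.4 CPM in the others. Acvr1 was lowest in the same library, at 31.1 CPM against 131.0 to 142.4 CPM, and Bmp7 was highest there, at 16.9 CPM against 1.64 to 3.01 CPM. Amh and Prl were highest in Fyn-KO replicate 1, each at 1.07 CPM from 10 counts, with none in the other Fyn-KO libraries. Areg in Fyn-KO replicate 2 (0.0962 CPM) and Ptgdr in Fyn-KO replicate 3 (0.109 CPM) each rest on 1 count.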

How the results depend on the processing

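Over all genes, 2493 higher and 461 lower calls became 52 and 146 among genes detected in both groups, 269 and 169 with the replicate block and 2190 to 4585 and 247 to 839 when 1 library was left out. Higher calls were 24 by limma-voom and lower calls 768 by DESeq2. Among genes detected in both groups, activin and inhibin, AMH and BMP, gonadotropin, prolactin and prostaglandin genes had 0 higher calls and targets of gonadotropins 1; the AMH and BMP and prostaglandin lists also had 0 lower. limma-voom gave 0 higher in each of the 6 lists and 0 lower in those 2 lists. DESeq2 gave 5 higher for activin and inhibin, 7 higher and 1 lower for gonadotropin receptors, 2 lower for gonadotropin targets and 2 lower for prostaglandins. Same-numbered libraries did not deviate together (correlations -0.0133, -0.00807 and -0.0255), and pairs with different numbers ran from -0.0138 to 0.0215. With WT libraries this uneven, the check could miss a pairing by number, so it does not settle the matter. With the replicate block higher calls were 0 for activin and inhibin, 0 for AMH and BMP and 2 for gonadotropin receptors. They were 1 for gonadotropin targets and 0 for prostaglandins, which also had 0 lower. With 1 library left out, higher calls ran from 3 to 7 for activin and inhibin, 4 to 8 for AMH and BMP, 4 to 10 for gonadotropin receptors, 6 to 7 for gonadotropin targets, 2 to 6 for prolactin and 8 to 11 for prostaglandins. Lower calls ran from 0 to 1 for AMH and BMP and gonadotropin receptors and from 0 to 2 for gonadotropin targets, prolactin and prostaglandins. The detection filter leaves out genes without WT counts by construction; the cause of the other shifts was not tested.

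The summed CPM of the members in Fyn-KO, 2956, was 3362 with Rn45s left out of the totals and 2863 to 3099 with 1 library left out, and the ratio of luteal receptors to follicle genes was 2.53 to 2.70 with 1 library left out but 0.446 with Prlr left out, a choice made after seeing the data. Bmpr1b, at a log2 fold change of 0.028, turned to -0.001 with RLE factors, -0.263 with library totals, -0.002 at a minimum count of 50, -0.554 and -0.553 without WT replicate 1 or 3 and -0.188 without Fyn-KO replicate 3, and its values with 1 library left out ran from -0.554 to 9.72. Over 32 named pathway genes, 371 results of alternatives kept their direction and side of the threshold, 53 lost the call, 10 gained it and 6 turned. Depth limits Fshr, Amh and every WT level, where 3 counts are 0.183 to 0.252 CPM.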

Other observations

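Genes used as markers of other steroid-making organs were also present. Of 8 adrenal cortex markers, 4 passed the filter on low counts, all without a WT count and so only through Fyn-KO, which leaves no other direction to find (limma-voom called 0). They were led by Akr1b7 at 744.4 ± 92.2 CPM, Mrap at 277.3 ± 21.3 CPM and Cyp11b1 at 84.5 ± 18.3 CPM (SD, n = 4 each). Cyp11b2, the aldosterone synthase, Mc2r, the corticotropin receptor, and Frmpd4 had no count in any library. Of 10 testis markers, 4 were tested and 1, Defb19 at 43.0 ± 13.1 CPM in Fyn-KO with no WT count, was higher by edgeR and 0 by limma-voom, and Hsd17b3, which makes testosterone in Leydig cells, had no count. The pituitary markers Cga, Fshb, Tshb and Pou1f1 had no count, and the 11 summed to at most 9.25 CPM in any library, with Lhb seen only at 0.223 CPM in Fyn-KO replicate 4.

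Of the ovarian lists, 9 of 15 tested granulosa markers were higher and 1 (Serpine2) lower in Fyn-KO by the edgeR quasi-likelihood F test, and 6 of 12 luteal and 5 of 10 theca and stroma markers were higher, beside 19.0% higher and 3.51% lower of all genes tested. These calls rest largely on genes with few or no WT counts: limma-voom called 1 granulosa, 0 luteal and 1 theca and stroma marker higher, and among genes detected in both groups 0, 0 and 1 were higher. The 7 oocyte markers that passed the filter had no WT count, so edgeR could call them in 1 direction only, and limma-voom called 0. By edgeR, 9 of 9 tested oligodendrocyte lineage markers were lower, and 8 were among genes detected in both groups. Of 11 tested macrophage and microglia markers 2 were higher and none lower, with summed CPM of 201.6 to 573.7 in WT and 368.5 to 453.9 in Fyn-KO. The 10 endothelial markers summed to 1.25, 20.2 and 1385 CPM in WT replicates 1 to 3 and 534.6 to 596.2 CPM in Fyn-KO, with 1 higher. Of 6 tested lung and liver markers 5 were lower in Fyn-KO, with summed CPM of 572.5 to 1299 in WT and 7.35 to 16.2 in Fyn-KO. Of the sex chromosome genes only Xist was tested and it did not pass, and the 5 summed to 532.4, 0.916 and 269.6 CPM in WT and 548.2 to 599.0 CPM in Fyn-KO. That sum adds Xist to the Y genes Ddx3y, Eif2s3y, Kdm5d and Uty, so it does not give the sex of a mouse. Of the 5, WT replicates 1 to 3 had 1, 2 and 2 detected, and Fyn-KO replicates 1 to 4 had 2, 1, 1 and 1. The sex of the mice was not tested.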
